A study of Homo sapiens with 12 samples.

Results

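SH-SY5Y cells that had received fibrillar amyloid-β with an incubation of 24 h were compared with SH-SY5Y cells that had received oligomeric amyloid-β with an incubation of 6 h. The comparison holds 6 of the 12 arrays of the series, 3 in each group, chosen by their treatment label alone. SH-SY5Y is a human neuroblastoma line with noradrenergic, neuron-like features. The remaining 6 arrays are controls of 6 h and of 24 h, and they are given here beside the treated values. Between the treated groups both the peptide's form and the number of hours change, so the part of each in a difference cannot be told apart. The labels give no dose, and they leave unsaid whether the hours count how long the peptide aged or how long the cells were exposed. Nor do they say that the replicates were separate cultures, so a p-value here covers just the scatter among these arrays, which may be technical. In such bulk samples, fewer cells of a type and less RNA per cell cannot be told apart.

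Amyloid-β is a short peptide cut from the amyloid precursor protein (APP) by β- and γ-secretase. It assembles into soluble oligomers and, with time, into insoluble fibrils like those of the plaques of Alzheimer's disease. Several pathways of a dividing neuroblastoma cell can be followed on an expression array. Sterol synthesis is set by the SREBP2 transcription factor, which is released when membrane cholesterol is low. Immediate early genes are switched on within minutes by kinase signalling, chaperone genes of the endoplasmic reticulum follow the folding load, and the genes of replication and mitosis follow the share of cells in cycle.

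Values are log2 MAS5 signals from Affymetrix 3′ arrays, and a change is a difference of 2 group means on that scale. A level in one gene is not set against a level in another, because probe sets differ in brightness. A mean level at or above log2 3.78 over the 12 arrays left 11774 genes, and the brightest probe set stood for each. The median of all probe sets lay between 3.95 and 4.11 on the treated arrays. It was higher by 0.13 in the 24 h controls (4.04 to 4.12) than in the 6 h controls (3.89 to 4.01), without overlap. Counts with each array centred on its median are given below. The 5′ probe set of 18S ribosomal RNA was higher in the fibrillar arrays, with means of 11.82 and 10.39 and groups that did not overlap (exact permutation test, two-sided p = 0.1, the smallest that 3 against 3 arrays allow). It was higher by 1.89 in the 24 h controls too, whereas the 3′ probe set had a treated change of -0.53, and the part of this in the results was not tested. The spiked bioB and bioC controls were lower on the fibrillar arrays, by 0.43 and 0.48, and in the 24 h controls, by 0.55 in each case, again with the treated groups apart (exact permutation p = 0.1 each, two-sided). After adjustment over the 10 array measures the p was 0.333 for all 3. The 3′ less 5′ difference was lower in the 24 h than in the 6 h controls by 0.30 for GAPDH and by 0.44 for ACTB, without overlap, and the part of that in the control changes was not tested. Fibrillar replicate 1 had the largest 3′ less 5′ differences of the treated arrays, 0.81 for GAPDH and 3.06 for ACTB, against 0.49 and 0.64 and against 2.48 and 2.78 in replicates 2 and 3. The oligomeric arrays lay between 0.66 and 0.80 for GAPDH and between 2.61 and 2.88 for ACTB. In a principal component analysis of the 6 treated arrays, the first component (36.5% of the variance) placed all 3 fibrillar arrays apart from all 3 oligomeric arrays. The second (19.0%) separated fibrillar replicate 1 (21.9) from fibrillar replicate 2 (-24.8). Of the markers on the array, 16 of 18 for noradrenergic and 19 of 27 for mesenchymal neuroblastoma passed the filter, as did 2 of 10 epithelial, 2 of 9 blood or endothelial and 1 of 9 glial markers. TH, which encodes the first enzyme of noradrenaline synthesis, was below the filter, with means of -0.68 and 0.85 in the oligomeric and fibrillar arrays. INSM1 was the other noradrenergic marker below it, while PHOX2A (10.89 and 10.59) and GATA3 (12.15 and 12.06) were above it. Of the mesenchymal markers, VIM (13.2 and 13.1) and TWIST1 (11.6 and 12.05) were above it, and MEOX1 (1.51 and 0.33) and FOSL1 (2.70 and 2.45) below. Within each list, the summed linear signal of the oligomeric and then the fibrillar arrays ran from 25800 to 26600 and 27000 to 28300 for the noradrenergic list and from 19400 to 21200 and 19900 to 21700 for the mesenchymal list. The sums of the epithelial, blood or endothelial and glial lists were at most 112, 85.3 and 83.2 on any treated array, and sums of different lists are not compared.

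Genes of sterol synthesis, several early stress transcription factors and some FOXO targets were higher in the fibrillar arrays, while several endoplasmic reticulum chaperones and some genes of replication and mitosis were lower. With limma and Benjamini-Hochberg adjustment, 1781 genes (15.1% of those tested) passed an adjusted p of 0.05 between the treated groups, 767 higher (6.51%) and 1014 lower (8.61%) in the fibrillar arrays. For 1717 of them the fibrillar and oligomeric values did not overlap, and for 31.2% of all genes they did not. The change was at least 1.5-fold for 467 genes and at least 2-fold for 80, of which 23 were higher and 57 lower. The median change was 0.40 among genes called higher and -0.49 among genes called lower, beside -0.02 over all genes, and the median standard error (SE) was 0.13. Single arrays moved the count: it was 992 without fibrillar replicate 3, 1042 without oligomeric replicate 2 and 1142 without oligomeric replicate 3, and 733 genes were called in each of the 6 fits that left out 1 treated array.

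HINT3, a nucleotide hydrolase of the histidine triad family, had the largest rise of all genes named here. Its log2 signal was 5.92, 6.18 and 6.04 on the oligomeric arrays and 7.75, 8.37 and 8.07 on the fibrillar arrays. All 3 fibrillar values lay above all 3 oligomeric values, a change of 2.02 (SE 0.32, limma adjusted p = 0.000816), or 4.04-fold. The controls rose less evenly, from 6.37 ± 0.40 to 7.24 ± 0.91 (SD, n = 3), which did not pass (limma adjusted p = 0.0893). UNC5B, a receptor for the axon guidance cue netrin, stood at 9.85, 9.18 and 8.75 with oligomers and at 10.05, 11.03 and 11.02 with fibrils, so that fibrillar replicate 1 was only slightly above oligomeric replicate 1. Its change was 1.44 (SE 0.25, limma adjusted p = 0.00142), but its 2 other probe sets moved the other way. RPL10L (1.43), a copy of a ribosomal protein gene whose probe set may also read its near-identical relatives, rose with the groups apart. HINT3, UNC5B and RPL10L were called in each of the 6 fits that left out 1 treated array.

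EPHB3, an ephrin receptor (1.58), EDN1, the precursor of the vasoconstrictor endothelin-1 (1.55), NHLRC4 (1.59) and SYCE3, a synaptonemal complex protein (1.43), also rose, but on less even values. One oligomeric array was far below the others for EDN1 (2.68 in replicate 3, against 5.12 and 4.93) and for EPHB3 (1.86 in replicate 2, against 3.78 and 3.56). Without that array the changes were 0.77 and 0.98, and neither was called. EDN1 also lost its call without control 6 h replicate 1 or any 1 of the 24 h controls, which bear on the spread alone. NHLRC4 lost its call without oligomeric replicate 2 or fibrillar replicate 3, and SYCE3 lost it in 4 of the 6 fits, with a highest limma adjusted p of 0.0531 and 0.0619. EPHB3 was called in 3 of these fits, its call being lost without fibrillar replicates 2 and 3 as well, and EDN1 in 3, its call being lost without fibrillar replicates 1 and 3 as well, with a highest limma adjusted p of 0.0939 and 0.156.

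The rises with the smallest p-values were modest changes on very even values. NR1D2, a nuclear receptor of the circadian clock (REV-ERBβ), read 8.70, 8.46 and 8.49 with oligomers and 9.54, 9.30 and 9.55 with fibrils. The groups were far apart relative to their spread, and the change was 0.91 (SE 0.09, limma adjusted p = 4.84e-05). The controls changed by the same amount, 0.89 (limma adjusted p = 4.5e-05). TCEAL9 (0.71), ADD3, the membrane skeleton protein γ-adducin (0.65), VGLL4, a cofactor that binds TEAD factors (0.73), BNIP3L, a mitophagy receptor (0.58), and NAP1L5 (0.52) followed. The control changes were 0.76 for ADD3 and 0.37 for BNIP3L, which were called, and 0.22 for TCEAL9, 0.10 for VGLL4 and 0.14 for NAP1L5, which were not.

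**Figure D1:**
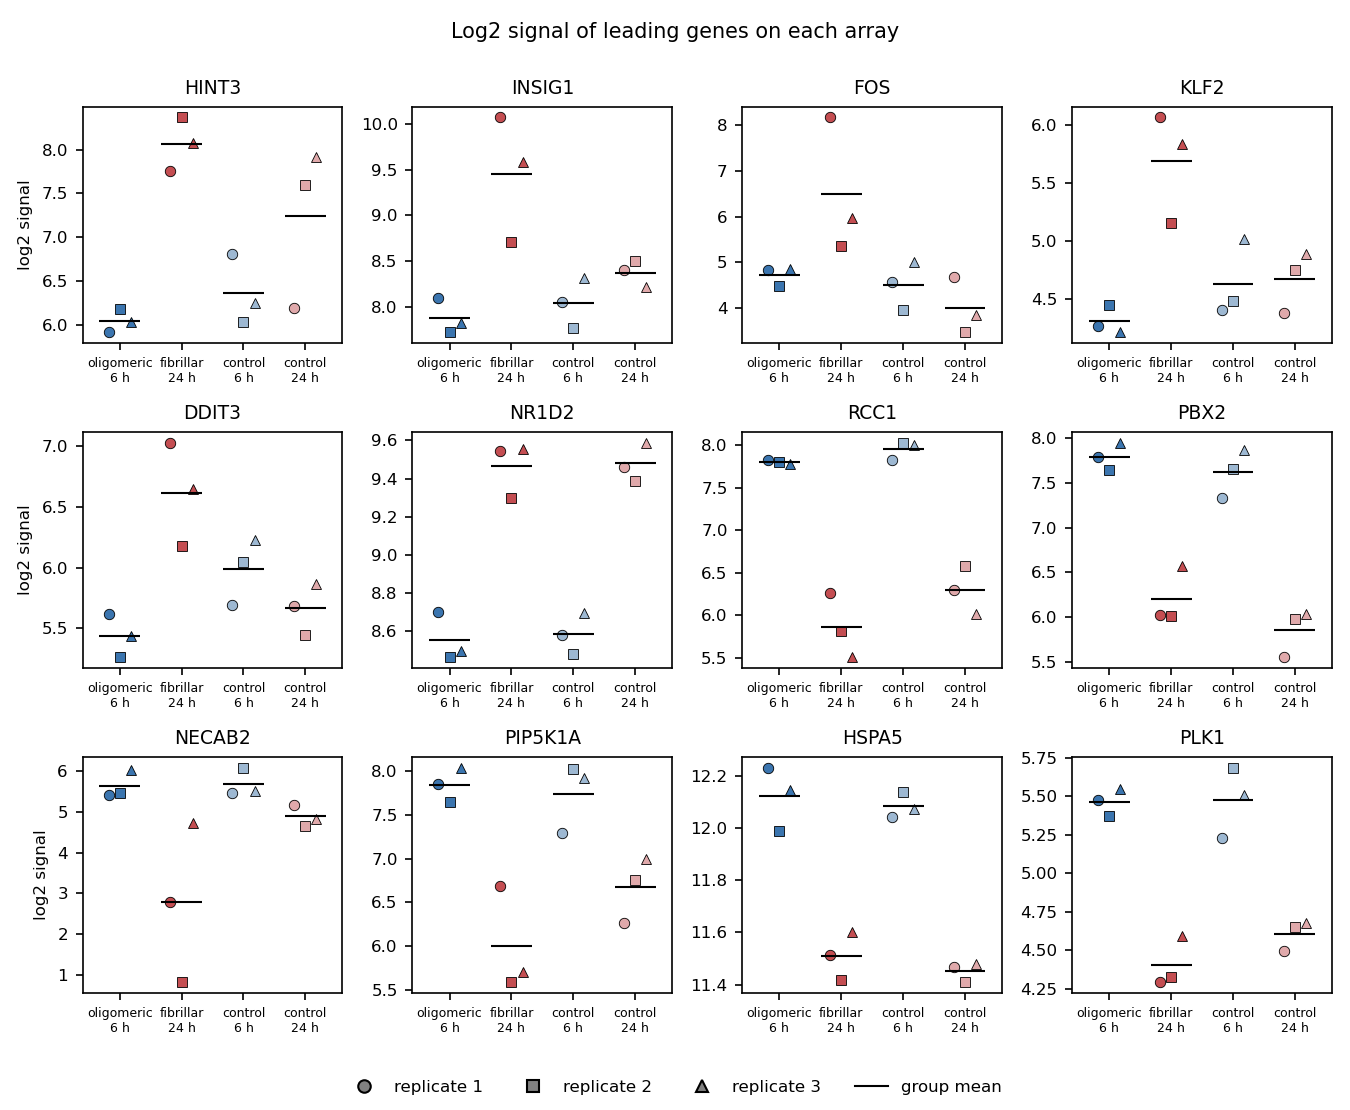
Log2 signal (vertical axis, its own range in each panel) of 12 genes on each array, by group along the horizontal axis. Symbols are the 3 replicates and lines are group means. INSIG1, KLF2 and DDIT3 are high in the fibrillar arrays alone of the 4 groups, while NR1D2, RCC1, PBX2, HSPA5 and PLK1 move the same way in the controls of the same hours.

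Among the genes that fell, RCC1, the exchange factor that charges Ran with GTP on chromatin, combined a large change with a small spread. It read 7.83, 7.80 and 7.78 on the oligomeric arrays and 6.26, 5.82 and 5.51 on the fibrillar arrays, all well below. The fall of 1.94 (SE 0.17, limma adjusted p = 3.75e-05) was 3.84-fold, and the controls fell by 1.66 (limma adjusted p = 3.56e-05). PBX2, a homeodomain partner of HOX proteins, went from 7.79, 7.64 and 7.95 to 6.02, 6.02 and 6.57. Its fall of 1.59 (SE 0.18) was matched by a fall of 1.76 in the controls.

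PIP5K1A, a kinase that makes the membrane lipid phosphatidylinositol bisphosphate, fell from 7.85, 7.64 and 8.04 to 6.69, 5.59 and 5.71, with fibrillar replicate 1 the highest of its group and still below every oligomeric array (change -1.85, SE 0.26, limma adjusted p = 0.000379). RNH1, the inhibitor of pancreatic-type ribonucleases, fell by 1.64 (SE 0.23), from 7.62 ± 0.18 to 5.98 ± 0.12 (SD, n = 3). HIRA, the chaperone that deposits histone H3.3, fell by 1.57 (SE 0.25), from 9.05 ± 0.30 to 7.48 ± 0.76. PKN3, a protein kinase of the PRK family, fell by 1.63 (SE 0.33). The controls fell by 1.07 for PIP5K1A, which was called, and had changes of -0.51, -0.49 and -0.38 for RNH1, HIRA and PKN3, which were not.

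The largest falls of all rested on low or uneven fibrillar values. NECAB2, a neuronal calcium-binding protein, read 5.43, 5.46 and 6.03 with oligomers and 2.79, 0.82 and 4.73 with fibrils. Its 3 fibrillar arrays spanned almost 4 log2 units and their mean was below the filter level, so the change of -2.86 (SE 0.62, limma adjusted p = 0.00607) has an uncertain size, although it was called in all 6 fits without 1 treated array. GTF2IP20, a pseudogene that shares sequence with GTF2I and may be read together with it, fell by 2.78 (SE 0.58) to a mean of 2.58. TNKS2, the poly-ADP-ribose polymerase tankyrase 2, read 8.64, 5.32 and 6.75 on the fibrillar arrays against 9.02, 8.65 and 8.90, a change of -1.95 whose call was lost without fibrillar replicate 3 (limma adjusted p = 0.0524). MALL, a membrane proteolipid (-2.59), PYGB, the brain form of glycogen phosphorylase (-2.05), and PTGDS, prostaglandin D2 synthase (-1.87), were called in 2, 1 and 3 of the 6 fits, with limma adjusted p-values up to 0.14, 0.0933 and 0.157. MALL and PYGB each lost their call without any 1 of the oligomeric arrays and without fibrillar replicate 2, and PYGB without fibrillar replicate 1 too. PTGDS lost it without oligomeric replicate 1 or 3 and without fibrillar replicate 3, where the change was -0.97. MALL and PTGDS also lost theirs without control 6 h replicate 1, and PTGDS without control 24 h replicate 1.

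Of the falls with the smallest p-values, IDH2, the mitochondrial NADP-dependent isocitrate dehydrogenase, went from 9.26 ± 0.17 to 8.22 ± 0.16 (SD, n = 3), a change of -1.05 (SE 0.10, limma adjusted p = 3.75e-05). CSRP1, a LIM protein of the actin cytoskeleton (-1.11), ERGIC1, a cycling protein between endoplasmic reticulum and Golgi (-1.40), the small heat shock protein HSPB1 (-0.90) and DBH, which converts dopamine to noradrenaline (-0.94), had the same adjusted p. The controls fell for each of these genes, by 0.73, 1.56, 1.10, 0.91 and 0.50. DBH was 10.61, 10.67 and 10.66 on the oligomeric arrays, above all 6 control arrays, and 9.58, 9.88 and 9.66 on the fibrillar arrays.

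Set beside the treated arrays, the controls of 24 h and 6 h gave a partly shared picture. In the controls 1375 genes (11.7%) were called between 24 h and 6 h, 443 higher (3.76%) and 932 lower (7.92%), and no array is shared with the treated comparison. With each array centred on its median, the control split was 140 higher and 1768 lower, and the treated split 508 and 703. Of the genes called in the treated arrays 717 were also called in the controls: 198 higher in both, 514 lower in both and 5 in opposite directions. The shared calls of the same direction were 39.98% of the treated and 51.8% of the control calls, 25.8% of the treated rises and 50.7% of the treated falls. Across the 11774 genes the changes had a Pearson r of 0.47, a description only, since genes are not independent replicates. Genes called higher in the treated arrays had a median control change of 0.20, and genes called lower one of -0.36. In the controls the count fell to 719 without control 6 h replicate 2, 735 without control 24 h replicate 3 and 832 without control 24 h replicate 1. A call in one comparison and not in the other does not show that the changes differ, so that difference was itself tested for all genes, as reported after the gene groups.

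**Figure D2:**
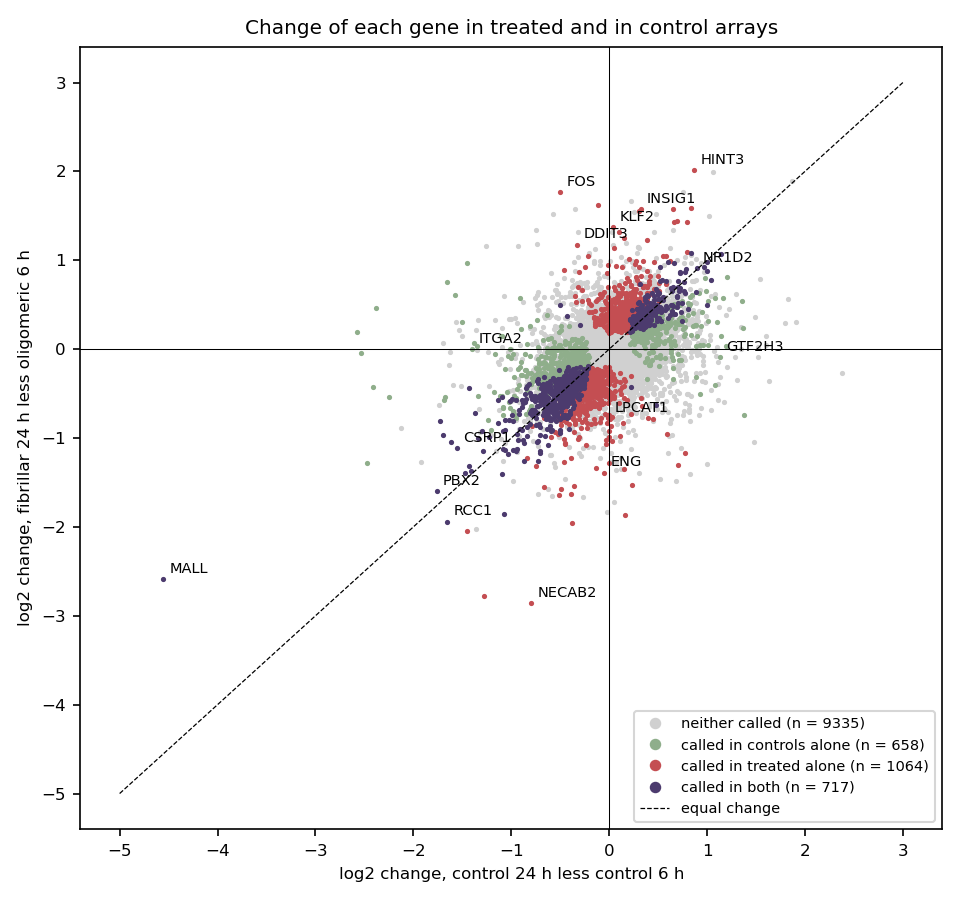
Log2 change of each of 11774 genes in the controls (24 h less 6 h, horizontal) and in the treated arrays (fibrillar 24 h less oligomeric 6 h, vertical). Colours show where a gene was called by limma, and the dashed line marks equal change. Of the called genes 514 fell and 198 rose in both, along the dashed line, while FOS, INSIG1 and DDIT3 lie high near a control change of 0, and ITGA2 and GTF2H3 lie near a treated change of 0.

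Sterol synthesis was the list with the most genes called higher. Of 23 tested sterol genes and further targets of SREBP2, 12 rose and none fell, with a median change of 0.42 beside -0.02 over all genes, while in the controls 1 rose and the median was 0.08. Fibrillar values lay above all oligomeric values for 11 of the 12 called genes, the exception being HSD17B7, and for 733 of all 767 genes called higher. INSIG1, which retains the SREBP complex in the endoplasmic reticulum and is itself an SREBP target, read 8.10, 7.73 and 7.82 with oligomers and 10.07, 8.71 and 9.58 with fibrils. Every fibrillar array was above every array of the other 3 groups, and the change was 1.57 (SE 0.23, limma adjusted p = 0.000575), or 2.97-fold. HMGCS1, which makes the precursor of mevalonate, read 7.84, 7.55 and 7.85 against 9.67, 8.31 and 9.23. All fibrillar values were again above all oligomeric ones. Its rise was 1.32 (SE 0.22, limma adjusted p = 0.00127), with a control change of 0.10.

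The called enzymes lie along the whole pathway. ACAT2, the cytosolic thiolase that makes acetoacetyl-CoA, rose by 0.63, IDI1, the isopentenyl diphosphate isomerase, by 0.94 and FDPS, farnesyl diphosphate synthase, by 0.52. SQLE, the squalene epoxidase, rose by 0.50. For IDI1 and SQLE some further probe sets moved the other way, and the mean of all probe sets was not called. MSMO1, which removes the sterol methyl groups at carbon 4, went from 9.25, 8.86 and 8.93 to 10.58, 9.62 and 10.25, a rise of 1.14 (SE 0.17, limma adjusted p = 0.000604). Of the late steps, HSD17B7 rose by 0.46, SC5D, sterol C5 desaturase, by 0.43 and EBP, a sterol isomerase, by 0.34. STARD4, which carries sterol between membranes (0.55, SE 0.08), and LPIN1, a phosphatidate phosphatase (0.42), completed the called genes. DHCR7, which makes cholesterol in the last step, was higher by 0.63 without a call (limma adjusted p = 0.0515), and LSS (0.02), PMVK (-0.04), LBR (-0.09) and the transporter NPC1 (0.01) had changes near 0. The genes of the factors themselves had changes of -0.21 for SREBF2 and -0.29 for SREBF1, without a call.

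The rise was uneven between the fibrillar arrays. All 12 called genes were highest in fibrillar replicate 1, and 11 of them lowest in replicate 2. Among all 767 genes called higher, replicate 1 was highest for 246 and replicate 2 lowest for 455. Over all 11774 genes, replicate 1 was highest for 3600 and replicate 2 lowest for 4235. The mean of the 23 genes, less the oligomeric mean, was 0.64, 0.22 and 0.43 in fibrillar replicates 1, 2 and 3 and between 0.03 and 0.13 in the 24 h controls. Replicate 1 is also the treated array with the largest 3′ less 5′ differences, and the part of these in the result was not tested. Without replicate 1, 9 of the 23 genes were called and the median was 0.29, with changes of 1.27 for INSIG1 and 1.02 for HMGCS1, both still called. SQLE (0.32), HSD17B7 (0.25) and EBP (0.24) were not called without replicate 1. HSD17B7 lost its call without oligomeric replicate 2 or 3 or fibrillar replicate 3 too, EBP without oligomeric replicate 1 or 3 or fibrillar replicate 3, and SQLE without oligomeric replicate 3 or fibrillar replicate 3.

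**Figure D3:**
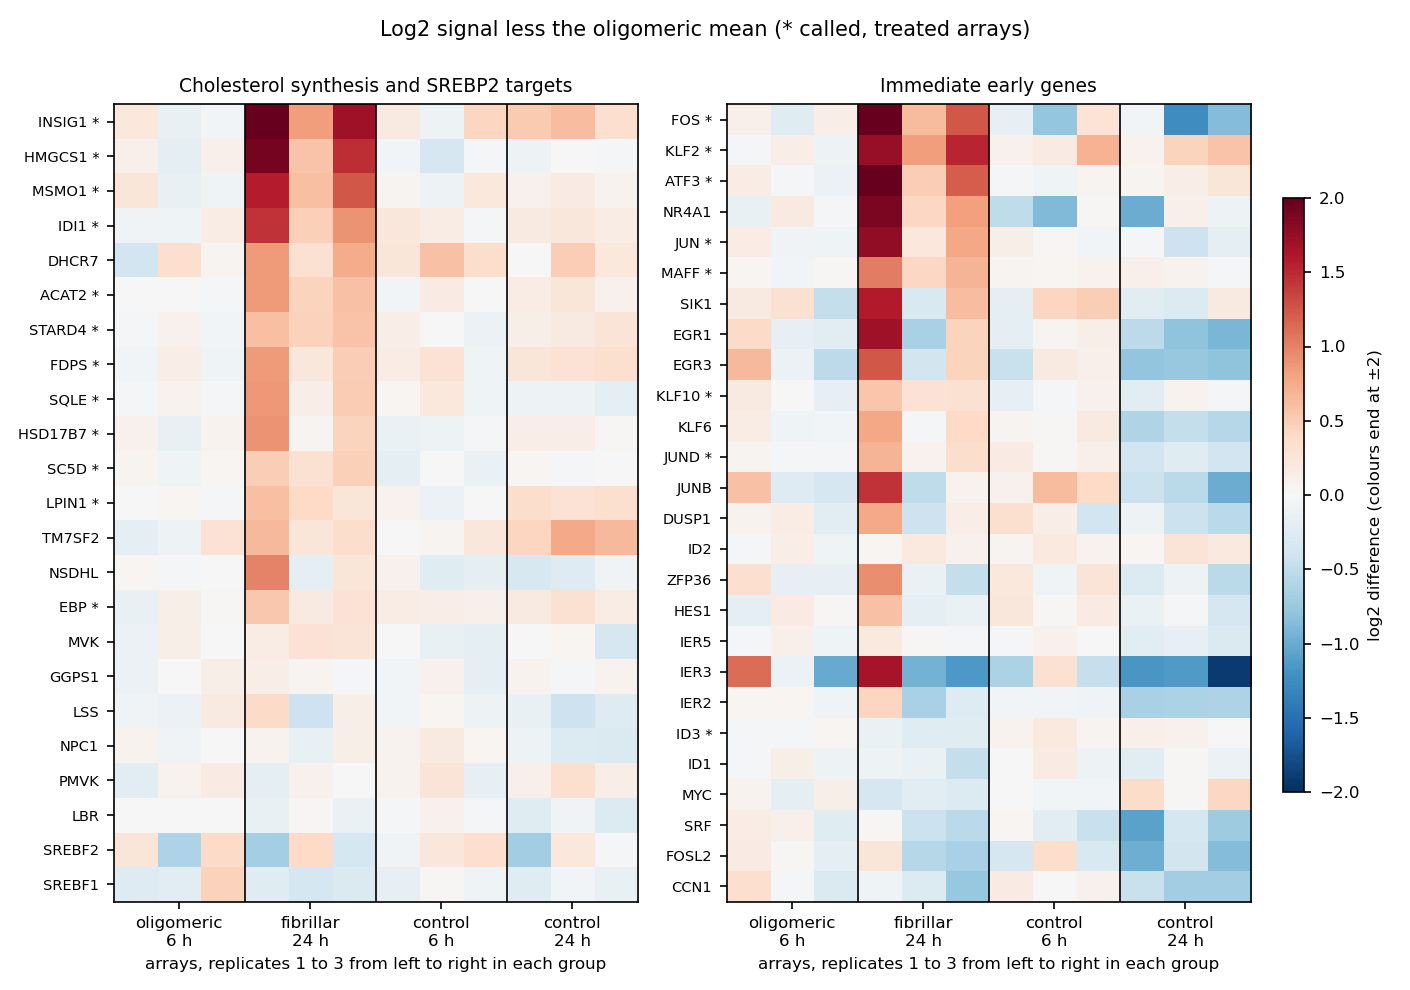
Log2 signal less the oligomeric mean of each gene (colour) for the cholesterol synthesis list and the immediate early list (rows of genes, an asterisk marks those called by limma in the treated arrays) on the 12 arrays (columns). In both lists the first fibrillar column is the strongest. The 24 h control columns are pale for sterol genes and mostly blue for immediate early genes.

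Promoters of the sterol genes were read for the CCAAT box, a motif of the NF-Y factor known to act beside SREBP. In the 250 bases before the gene start in RefSeq (GRCh38.p14), letters CCAAT on either strand occurred in 8 of the 10 called sterol genes with a listed promoter, in 14 of 21 tested ones and in 35.3% of the 9691 tested genes that had one. The stretches around the matches in INSIG1 (chr7:155297696-155297724, plus strand) and HMGCS1 (chr5:43313496-43313579, minus strand) are shown because these genes lead the list. They are written 5′ to 3′ on the gene's strand, with the motif in capitals (ATTGG is CCAAT on the other strand).
INSIG1: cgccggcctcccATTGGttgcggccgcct
HMGCS1: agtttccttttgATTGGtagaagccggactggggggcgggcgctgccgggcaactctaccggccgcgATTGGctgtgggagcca
A match describes the letters and shows neither a bound site nor a cause.

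Fatty acid enzymes went both ways. Of 15 tested genes 3 rose and 1 fell, or 26.67% beside 15.1% of all genes, with a median of 0.00057. SCD, the stearoyl-CoA desaturase, rose from 9.15 ± 0.05 to 9.78 ± 0.29 (SD, n = 3), a change of 0.63 (SE 0.11, limma adjusted p = 0.00156). ELOVL5, an elongase of polyunsaturated fatty acids, rose by 0.41 (SE 0.08), and FADS3, of the desaturase family, fell by 0.93 (SE 0.23). ELOVL6 (0.38), whose 2 other probe sets moved the other way, lost its call without any of 5 of the 6 treated arrays, all but fibrillar replicate 2, and FADS3 without oligomeric replicate 3 or fibrillar replicate 1. Of the 4 tested genes of sterol export under LXR limma called 0, and 0 had an unadjusted p under 0.05.

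Immediate early genes rose in part, with their highest values on a single array. Of 26 tested genes 7 rose and 1 fell, with a median of 0.25, whereas in the controls none rose, 5 fell and the median was -0.36. FOS, the AP-1 subunit, read 4.84, 4.50 and 4.87 with oligomers and 8.16, 5.36 and 5.98 with fibrils. All fibrillar values were above the oligomeric ones, but replicate 1 stood more than 2 log2 units above the other two, and the change was 1.76 (SE 0.53, limma adjusted p = 0.0334). FOS lost its call without fibrillar replicate 1, where the change was 0.93 (limma adjusted p = 0.15), and without any 1 of the oligomeric arrays (limma adjusted p up to 0.15 over these fits).

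KLF2, a Krüppel-like transcription factor, and ATF3, a stress-induced partner of AP-1, were firmer. KLF2 went from 4.27, 4.45 and 4.22 to 6.06, 5.15 and 5.84 (1.37, SE 0.28, limma adjusted p = 0.00459) and ATF3 from 6.36, 6.19 and 6.10 to 8.27, 6.70 and 7.42 (1.25, SE 0.26, limma adjusted p = 0.00434). For both the groups did not overlap, and the control changes were 0.04 and 0.16. MAFF, a small MAF protein, rose by 0.70 (SE 0.12). KLF2, ATF3 and MAFF were called in all 6 fits without 1 treated array. JUN (0.92), KLF10 (0.38) and JUND (0.37) lost their call without fibrillar replicate 1 and without oligomeric replicate 2 or 3, and JUND without fibrillar replicate 3 too. Their changes without fibrillar replicate 1 were 0.50, 0.30 and 0.21. ID3, an inhibitor of helix-loop-helix factors, fell by 0.21 and was called in only 1 of the 6 fits, the fit without fibrillar replicate 1.

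EGR1, a zinc finger factor of the same class, shows the spread of the group: it read 10.74, 8.40 and 9.50 on the fibrillar arrays and 9.44, 8.90 and 8.84 on the oligomeric arrays, so that the groups overlapped (0.49, SE 0.36). For the whole list the mean less the oligomeric mean was 0.93 in fibrillar replicate 1, -0.09 in replicate 2 and 0.16 in replicate 3. In the 24 h controls it lay between -0.38 and -0.29. Without fibrillar replicate 1 the count of genes that rose was 3 and the median -0.05. The count was 3 as well without oligomeric replicate 2 or without oligomeric replicate 3, and 11 without fibrillar replicate 2. The same array had the largest 3′ less 5′ differences of the treated arrays, and their part was not tested. Of the ERK feedback inhibitors, SPRY2 rose by 0.52 (SE 0.11) and SPRED2 fell by 0.36 (SE 0.09), alone among 15 tested. These calls were 13.33% of the list, beside 15.1% of all genes, and SPRED2 was not called without oligomeric replicate 2 or fibrillar replicate 2.

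Genes of the stress response under ATF4 changed in both directions, 5 up and 6 down of 33 tested, with a median of 0.0060. DDIT3, the stress factor also called CHOP, read 5.62, 5.26 and 5.44 with oligomers and 7.03, 6.17 and 6.65 with fibrils. The groups were apart and the change was 1.18 (SE 0.22, limma adjusted p = 0.00211), against -0.33 in the controls. DDIT4, an inhibitor of mTORC1, rose by 0.63 (SE 0.13) and PSPH, the last enzyme of serine synthesis, by 0.40 (SE 0.08). Among the genes that fell, PHGDH, the first enzyme of serine synthesis, fell by 0.71 (SE 0.15), SHMT2, the mitochondrial serine hydroxymethyltransferase, by 0.55 (SE 0.12), the amino acid transporter SLC7A5 by 0.56 and EIF4EBP1, a repressor of cap-dependent translation, by 0.66 (SE 0.09). The controls changed by -0.56, -0.70, -0.52 and -0.63 for these 4. SLC7A5 lost its call without oligomeric replicate 2 or 3 and without fibrillar replicate 1 or 3, and its control change was not called. The counts were 3 up and 3 down without oligomeric replicate 2 and again without fibrillar replicate 3.

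Of 17 cytosolic aminoacyl-tRNA synthetases, which charge tRNAs with amino acids, none rose, 5 fell and 12 were not called. The calls were 29.41% of the list, beside 15.1% of all genes. The median was -0.12, and 5 fell in the controls. HARS1, for histidine, fell by 0.61 (SE 0.08, limma adjusted p = 0.000221), WARS1, for tryptophan, by 0.58 (SE 0.11) and FARSA, a subunit of the phenylalanine enzyme, by 0.53 (SE 0.10). The count was 3 without oligomeric replicate 3, without fibrillar replicate 2 and without fibrillar replicate 3.

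Several chaperones of the endoplasmic reticulum had lower levels in the fibrillar arrays. Of 24 tested genes 10 fell and 2 rose, with a median of -0.24, and in the controls 12 fell and none rose, with a median of -0.28. HSPA5, the Hsp70 chaperone BiP, read 12.23, 11.99 and 12.14 with oligomers and 11.51, 11.42 and 11.60 with fibrils, fully apart, a fall of 0.61 (SE 0.07, limma adjusted p = 9.55e-05). PDIA4, a disulfide isomerase, fell by 0.61 (SE 0.06) and CRELD2, a secreted stress protein, by 0.64 (SE 0.08). The lectin chaperones CALR and CANX fell by 0.56 and 0.27, HSP90B1, the Hsp90 of the compartment, by 0.34, HYOU1, an exchange factor for BiP, by 0.44 and P4HB, the classical disulfide isomerase, by 0.57. Averaging each gene's probe sets ended the calls of CANX and HSP90B1 and gave the list a median of -0.0985, since 2 further probe sets of CANX (0.25 and 0.08) and 1 of HSP90B1 (0.48) moved the other way. The 2 genes that rose were sensors of the stress response: the kinase EIF2AK3, also called PERK, by 0.53 (SE 0.12) and ATF6 by 0.34 (SE 0.10). ATF6 was not called without oligomeric replicates 1 or 2 or fibrillar replicates 1 or 3. PDIA3 (-0.62, and -0.27 without fibrillar replicate 2) was called in 1 of the 6 fits, that without fibrillar replicate 1, and SDF2L1 (-0.42) in 2, those without oligomeric replicate 2 and fibrillar replicate 1. The controls fell by 0.63 for HSPA5, 0.59 for PDIA4 and 0.79 for CALR.

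The promoters of some of these genes carry a known motif, the endoplasmic reticulum stress element, read here as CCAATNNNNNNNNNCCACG on either strand. It occurred within 250 bases before the start in 5 of 11 called genes with a listed promoter and in 6 of 23 tested ones, beside 0.134% of 9691 genes. The element contains a CCAAT box, which alone occurred in 10 of the 11 and in 21 of the 23 tested, beside 35.3% of all genes. The matched stretches of 4 genes that fell are given 5′ to 3′ on the gene's strand in RefSeq (GRCh38.p14), with both parts of the element in capitals: HSPA5 at chr9:125241379-125241421 (minus), CALR at chr19:12938372-12938414 (plus), CANX at chr5:179698766-179698808 (plus) and CRELD2 at chr22:49918542-49918584 (plus). In CALR and CRELD2 the element lies on the other strand and reads CGTGG, then ATTGG.
HSPA5: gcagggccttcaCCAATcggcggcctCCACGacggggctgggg
CALR: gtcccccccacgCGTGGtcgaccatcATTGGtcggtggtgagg
CANX: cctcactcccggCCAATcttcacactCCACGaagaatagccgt
CRELD2: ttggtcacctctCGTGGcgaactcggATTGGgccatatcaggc
The stretches share the spaced letters while their other bases differ, and nothing about binding follows from the match.

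Cytosolic chaperones and antioxidant genes fell in smaller numbers. Of 17 heat shock genes 4 fell and none rose, or 23.53% beside 15.1% of all genes. Their median of -0.14 was -0.01 without fibrillar replicate 2 and -0.05 without oligomeric replicate 1. HSPB1 read 9.32, 9.56 and 9.54 against 8.60, 8.45 and 8.69, and the controls fell by 0.91, as far as the treated arrays. HSP90AB1, the constitutive Hsp90, fell by 0.73 (SE 0.08), and its mean over 3 probe sets lost the call. STIP1, a cochaperone that links Hsp70 and Hsp90, fell by 0.82 (SE 0.16), while its other probe set moved the other way. Of 23 NRF2 targets and antioxidant genes 4 fell and none rose: TXNRD1, the cytosolic thioredoxin reductase (-0.51, SE 0.08), SRXN1, sulfiredoxin (-0.46, SE 0.11), TKT, transketolase (-0.33, SE 0.08), and KEAP1, the sensor that restrains NRF2 (-0.42). That was 17.39% of the list, beside 15.1% of all genes, and the count was 2 without oligomeric replicate 2 or 3. TKT and KEAP1 lost their call without oligomeric replicate 2 or 3, TKT without fibrillar replicate 3 too, and KEAP1 without fibrillar replicate 1 or 2.

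Replication and mitosis genes were lower in the fibrillar arrays and in the 24 h controls alike. Of 40 mitosis genes 11 fell and none rose, or 27.5% beside 15.1% of all genes. The median was -0.22, beside 12 that fell in the controls with a median of -0.23. PLK1, the mitotic polo-like kinase, read 5.47, 5.37 and 5.55 with oligomers and 4.30, 4.33 and 4.59 with fibrils, fully apart (-1.06, SE 0.22, limma adjusted p = 0.00474). CDC20, an activator of the anaphase-promoting complex, fell by 0.85 (SE 0.12) and BUB1B, a spindle checkpoint kinase, by 0.57 (SE 0.11). Of 39 S phase genes 9 fell and 1 rose (25.64% called, beside the same 15.1%), with a median of -0.22. MCM5, a subunit of the replicative helicase, fell by 1.15 (SE 0.16, limma adjusted p = 0.000311), from 8.73 ± 0.23 to 7.59 ± 0.36 (SD, n = 3). MCM3 fell by 0.71 (SE 0.09) and MCM7 by 0.63 (SE 0.07). The single rise was that of CDT1, a loader of the helicase (0.52, SE 0.15), which was lost without oligomeric replicates 1 or 3 or fibrillar replicates 2 or 3.

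Single arrays moved these counts. For mitosis it was 5 without oligomeric replicate 2, 6 without fibrillar replicate 3 and 16 without fibrillar replicate 2, and for S phase 6 without oligomeric replicate 2 and 5 without fibrillar replicate 3. PLK1, CDC20, BUB1B, MCM3, MCM5 and MCM7 were called in all 6 fits. Of 10 replication-dependent histone genes limma called 0, and 2 had an unadjusted p under 0.05.

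Mitotic promoters often hold the cell cycle homology region, read here as TTTGAA on either strand. It occurred before the start in 5 of 9 called mitosis genes with a listed promoter and in 18 of 32 tested ones, against 8.33% of all 9691 and 9.27% of all genes called lower. PLK1 (chr16:23678848-23678877, plus strand) and BUB1B (chr15:40161034-40161063, plus strand) are shown as genes that fell, 5′ to 3′ in RefSeq (GRCh38.p14) with the motif in capitals.
PLK1: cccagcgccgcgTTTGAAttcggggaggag
BUB1B: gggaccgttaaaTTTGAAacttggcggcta

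Regulators of the G1 phase went both ways, 4 up and 4 down of 15 tested, while in the controls none rose and 4 fell. CDKN1B, the inhibitor p27, read 10.29, 10.34 and 10.20 with oligomers and 10.66, 10.54 and 10.71 with fibrils, a rise of 0.36 (SE 0.07, limma adjusted p = 0.00232) beside -0.03 in the controls. RBL2, a pocket protein of quiescent cells, rose by 0.70 (SE 0.13), and CDKN1C, the inhibitor p57, by 0.77 (SE 0.18). CDK4 fell by 0.46 (SE 0.07), CCND1, cyclin D1, by 0.33 (SE 0.08) and CDK6 by 0.26 (SE 0.07). CDKN1C was not called without oligomeric replicate 2 or fibrillar replicate 3, CDK6 not without oligomeric replicate 2 or fibrillar replicate 1, and CCND1 not without fibrillar replicate 2. The counts were 2 up and 2 down without oligomeric replicate 2, 2 up without fibrillar replicate 3 and 2 down without fibrillar replicate 2.

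Targets of FOXO factors, which act when insulin signalling is low, rose in 8 of 14 cases and 1 fell, with a median of 0.40. In the controls 3 rose and 2 fell, with a median of 0.23. PDK4, a kinase that shuts the entry of pyruvate into mitochondria, went from 5.65, 5.66 and 5.73 to 6.66, 6.48 and 6.66, with no overlap (0.92, SE 0.16, limma adjusted p = 0.00126). SESN3, a sestrin that restrains mTORC1, rose by 0.61 (SE 0.12) and FOXO3 itself by 0.34 (SE 0.07). FKBP5, a cochaperone of steroid receptors, fell by 0.42 (SE 0.09), as it did in the controls (0.45). The count of rises was 5 without fibrillar replicate 3, and 4 with the mean of each gene's probe sets.

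Of 25 p53 targets 8 rose and 1 fell, with a median of 0.21, against 2 and 1 in the controls. CCNG1, cyclin G1, rose by 0.46 (SE 0.07) and by 0.50 in the controls. BTG3 (0.39, SE 0.07) and BTG1 (0.49, SE 0.09), antiproliferative proteins, rose with control changes of -0.01 and 0.29. GADD45A, a stress protein of growth arrest, rose by 0.61, with a control change of -0.08. The gene that fell was BAX, the effector of mitochondrial permeabilisation (-0.70, SE 0.17), whose call was lost without oligomeric replicate 3 or fibrillar replicate 3. Of 16 clock genes 3 rose, or 18.75% beside 15.1% of all genes called either way. They were NR1D2, RORA, a nuclear receptor that drives the clock (0.59, SE 0.14), and the repressor CRY1 (0.24, SE 0.07). CRY1 was called in 1 of the 6 fits, that without oligomeric replicate 1.

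Of 35 hypoxia targets and glycolytic enzymes 8 rose and 4 fell, with a median of 0.11. The median was -0.01 without fibrillar replicate 2, 0.07 without oligomeric replicate 3 and 0.02 with the mean of probe sets. Those that rose included BNIP3L (10.01, 9.94 and 9.94 against 10.38, 10.72 and 10.54), the histone demethylase KDM3A (0.55, SE 0.09), the MAX partner MXI1 (0.49, SE 0.09) and the mitophagy receptor BNIP3 (0.45, SE 0.10). Those that fell were GPI, glucose phosphate isomerase (-0.76, SE 0.13), PFKP, platelet phosphofructokinase (-0.61, SE 0.08), ENO1, enolase 1 (-0.50, SE 0.09), and ALDOA, aldolase A (-0.36). ALDOC, aldolase C, another glycolytic enzyme, rose (0.61), a call lost without fibrillar replicate 2. ALDOA lost its call without oligomeric replicate 2 or 3 and without fibrillar replicate 1 or 3. ENO1 is uncertain, because its 2 other probe sets moved the other way and the mean of its probe sets had a change of 0.09 (limma adjusted p = 0.681).

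**Figure D4:**
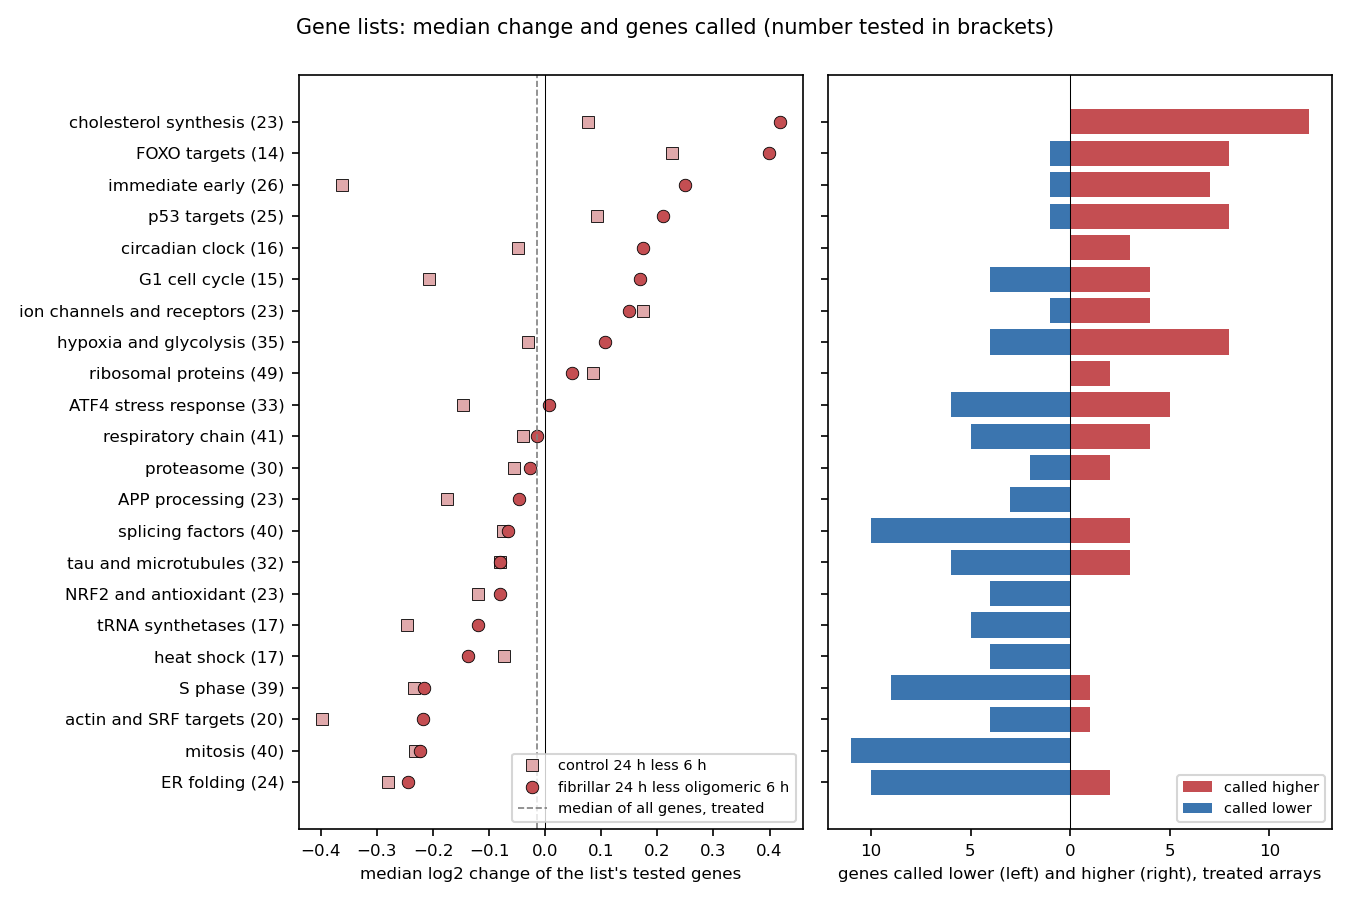
Left, median log2 change (horizontal axis) of the tested genes of 22 lists in the treated arrays (circles) and in the controls (squares), with the number tested in brackets and the treated median of all genes dashed. Right, number of genes called lower (to the left of 0) and higher (to the right) in the treated arrays. Cholesterol synthesis has 12 genes called higher and none lower, mitosis 11 lower and none higher, and the immediate early list has its circle at 0.25 and its square at -0.36.

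The respiratory chain split as well, with 4 up and 5 down of 41 nuclear-encoded genes and a median of -0.01. These calls were 21.95% of the list, beside 15.1% of all genes. UQCRC1, a core subunit of complex III, fell by 0.76 (SE 0.13) from 8.22, 8.64 and 8.65 to 7.62, 7.80 and 7.80, CYC1, cytochrome c1, by 0.70 (SE 0.12) and NDUFV1, of complex I, by 0.58 (SE 0.09). The rises were small: NDUFB6 (0.30), UQCRC2 (0.23), SDHD (0.22) and COX7A2 (0.22). Rises were less firm, since the count was 0 without oligomeric replicate 2, 2 without oligomeric replicate 1 and 1 without any other treated array. Of 49 ribosomal protein genes 2 rose and none fell, or 4.08% beside 15.1% of all genes, with a median of 0.05. The 2 were RPL34 (0.24) and RPS25 (0.25). Both lost their call without oligomeric replicate 2 or 3 or fibrillar replicate 1, RPL34 without oligomeric replicate 1 and RPS25 without fibrillar replicate 3 as well.

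Genes of the amyloid pathway were called at about the rate of all genes, 3 of 23 (13.04%) beside 15.1%. APP, itself not called, read 10.82, 10.79 and 10.84 with oligomers and 9.93, 10.72 and 10.93 with fibrils, so that the groups overlapped and fibrillar replicate 1 alone was low. Its change was -0.29 (SE 0.17, limma adjusted p = 0.279), its 2 other probe sets had changes of 0.40 and 0.22, and the controls fell by 0.89. BACE1, the β-secretase, had a change of -0.31 (SE 0.11, limma adjusted p = 0.0755) and MAPT, which encodes tau, one of -0.20 (SE 0.22, limma adjusted p = 0.589). Other probe sets of BACE1 had changes of 0.41, -0.13 and -0.63, and those of MAPT 0.235, -0.39 and -0.30. The 3 called genes of precursor processing fell and none rose, with a list median of -0.05 (0.02 with the mean of probe sets and 0.03 without oligomeric replicate 1). APH1A, a γ-secretase subunit, fell by 0.60 (SE 0.10, limma adjusted p = 0.000909), from 9.57, 9.57 and 9.59 to 9.24, 8.76 and 8.91, with a control change of -0.06, although 1 of its 2 other probe sets moved the other way and their mean lost the call. APLP2, a relative of APP, fell by 0.40 (SE 0.09), also without a call for the mean of its probe sets, and GGA3, an adaptor that sorts BACE1 to lysosomes, by 0.61 (SE 0.14), a call lost without fibrillar replicate 3 (limma adjusted p = 0.0541). The count was 6 without oligomeric replicate 1 and 2 without fibrillar replicate 3. Of 14 genes that bind or clear the peptide 1 was called, or 7.14% beside 15.1% of all genes. It was CLU, the extracellular chaperone clusterin, which fell by 0.79 (SE 0.15), from 7.16 ± 0.20 to 6.37 ± 0.11 (SD, n = 3). The controls fell by 0.50.

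Among microtubule and tau genes 3 of 32 rose and 6 fell, or 28.12% beside 15.1% of all genes, with a median of -0.08. The tubulins TUBB (-0.61, SE 0.10) and TUBB6 (-0.44, SE 0.09) and the tubulin folding cofactor TBCB (-0.57, SE 0.10) fell, as they did in the controls, by 0.48, 0.62 and 0.45. The growth cone genes DPYSL3 (0.32), STMN2 (0.30) and STMN4 (0.88) rose. The 3 rises were lost without oligomeric replicate 2 or fibrillar replicate 3, and 1 stood without oligomeric replicate 3 or fibrillar replicate 1. Of 20 actin genes and SRF targets 4 fell and 1 rose, or 25% beside 15.1% of all genes. The median was -0.22 (-0.0051 over the 14 genes left by a filter at the 75th percentile and -0.13 without oligomeric replicate 2). In the controls 9 of these genes fell, with a median of -0.40. VCL, vinculin, fell by 0.52 (SE 0.07), ACTB, β-actin, by 0.48 (SE 0.08) and the tropomyosin TPM4 by 0.91 (SE 0.19), with control falls of 0.79, 0.67 and 0.89.

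Markers of the noradrenergic identity changed in both directions, 3 up and 4 down of 16. The receptor tyrosine kinase RET rose by 0.52 (SE 0.08) and by 0.70 in the controls, DBH fell as described above, TBX2 fell by 0.46 (SE 0.08) and HAND1 by 0.75 (SE 0.19). HAND1 had a control change of -0.0041 and was not called without oligomeric replicate 3 or fibrillar replicate 3. The count of rises was 1 without oligomeric replicate 2, fibrillar replicate 1 or fibrillar replicate 3 and 2 without oligomeric replicate 3, and that of falls 2 without fibrillar replicate 3. The neuropeptides galanin (GAL, -0.72, SE 0.11) and NPY (-0.36, SE 0.09) fell among 12 granin and peptide genes, and in the controls too. These were 16.67% of the list, beside 15.1% of all genes. The other probe set of GAL had a change of 0.69, and their average was not called. NPY lost its call without oligomeric replicate 2 or 3 or fibrillar replicate 3.

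Of 40 splicing factors 10 fell and 3 rose, with a median of -0.07, beside 13 that fell in the controls. HNRNPL, which binds CA-rich RNA, fell by 0.71 (SE 0.08, limma adjusted p = 8.27e-05), SF3B3, of the U2 particle, by 0.50 (SE 0.07) and HNRNPA0 by 0.31 (SE 0.06). PTBP2, the neuronal polypyrimidine tract protein, rose by 0.46 (SE 0.12) and SF3B1 by 0.36 (SE 0.08). PTBP2 lost its call without oligomeric replicates 2 or 3 or fibrillar replicate 3. The count of rises was 1 without oligomeric replicate 3 or fibrillar replicate 3, 2 without oligomeric replicate 2 and 5 without fibrillar replicate 2. In the list of TGF-β and BMP signalling 4 of 31 rose and 6 fell, with 2 rises without any treated array but oligomeric replicate 1, 2 falls without oligomeric replicate 2, 1 without fibrillar replicate 3, and 4 falls without oligomeric replicate 1 or 3 or fibrillar replicate 2. ENG, a co-receptor of TGF-β, read 5.80, 5.76 and 6.27 with oligomers and 4.59, 4.15 and 4.93 with fibrils, a fall of 1.39 (SE 0.23, limma adjusted p = 0.00108), with a control change of -0.05.

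Values of several lists turned on the arrays and probe sets used. With 1 treated array left out, the median of the ATF4 list lay between -0.046 and 0.020, that of the respiratory chain between -0.075 and 0.0078, and that of the ribosomal proteins between -0.010 and 0.13. The median of the tRNA synthetases was -0.060 without oligomeric replicate 2, -0.19 without replicate 1 and -0.23 without replicate 3, and that of the p53 targets 0.11 without oligomeric replicate 2. Without fibrillar replicate 2 the medians were -0.13 for microtubule and tau genes and -0.11 for splicing factors. With the mean of probe sets, 2 heat shock genes fell, 1 fatty acid gene, 2 G1 regulators, 1 respiratory chain gene and 1 noradrenergic marker rose, 0 genes of TGF-β and BMP signalling rose, and 2 genes of precursor processing rose while 1 fell. With a constant prior variance, 3 immediate early genes rose, 6 mitosis genes fell, and the ATF4 list had 3 in each direction.

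Averaging the probe sets also ended the calls of further genes described above. For ELOVL5 (-0.68), DPYSL3 (-0.45), UQCRC2 (-0.39), SF3B1 (-0.15), CDT1 (-0.08) and CDK6 (0.12 and 0.09) some other probe sets moved the other way, with the changes given. MAFF, FADS3, FOXO3, SESN3, RET, PTBP2, CDKN1C, NDUFB6, HSD17B7, EBP, ATF6, PDIA3, ID3, RPS25, COX7A2, EDN1, MALL, TNKS2 and PTGDS lost theirs as well.

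Whether the treated change departed from the control change was tested for all 11774 genes, as the difference of the changes. The question is whether cells with peptide differ between the groups by more or less than the controls of 24 h and 6 h do. With these arrays the difference is also the fibrillar response less the oligomeric response. The control groups differed in array measures as well, as given above, and the part of these in the difference was not tested. By limma 5 genes (0.0425%), 1 with a positive and 4 with a negative difference, passed an adjusted p of 0.05 and 1004 had an unadjusted p under 0.05. The count depended on single arrays: it was 29 without fibrillar replicate 1, 64 without fibrillar replicate 2, 1 without control 6 h replicate 1 and 0 without control 24 h replicate 1 or 3, control 6 h replicate 2 or 3, any oligomeric array or fibrillar replicate 3. The split turned as well: 12 were positive and 1 negative with median centring, which kept 2 of the 5, 18 and 9 with array weights, and 53 and 11 without fibrillar replicate 2.

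RNF145, a ubiquitin ligase of the endoplasmic reticulum that takes part in sterol control, was 10.53, 10.51 and 10.51 with oligomers and 10.08, 10.20 and 9.97 with fibrils. In the controls it went the other way, from 10.61, 10.51 and 10.58 to 10.80, 10.80 and 10.77, and no group overlapped its counterpart. The changes were -0.43 and 0.22 and their difference -0.65 (SE 0.09, limma adjusted p = 0.0219). LPCAT1, an acyltransferase that remodels phosphatidylcholine, read 8.58, 8.59 and 8.81 against 7.78, 7.92 and 7.93 in the treated arrays, while the controls stood at 8.72 ± 0.04 and 8.71 ± 0.09 (SD, n = 3). Its difference was -0.77 (SE 0.12, limma adjusted p = 0.0367). SPDYE2, of the Speedy family of near-identical copies that its probe set may read together, fell by 0.63 with peptide and rose by 0.48 in the controls (difference -1.11, SE 0.18, limma adjusted p = 0.0367).

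For the other 2 genes the treated groups overlapped and the controls moved. ITGA2, an integrin α subunit that binds collagen, was 9.69, 9.78 and 9.52 with oligomers and 10.08, 9.15 and 9.76 with fibrils. The 24 h controls, at 8.35, 8.56 and 8.28, were the low group, below the 6 h controls at 9.79, 9.92 and 9.67, so the changes were 0.00 and -1.40 (difference 1.40, SE 0.23, limma adjusted p = 0.0367). GTF2H3, a subunit of the transcription factor TFIIH, had a treated change of -0.09 and a control change of 1.13 (difference -1.22, SE 0.18, limma adjusted p = 0.0219), and its probe set is of the kind that may also read other transcripts. Each of the 5 was called in the fits without fibrillar replicate 1 and without fibrillar replicate 2 and in no other fit that left out a treated array, where its highest limma adjusted p was between 0.0708 and 0.151. Of the fits without 1 control array, the fit without control 24 h replicate 2 kept RNF145, GTF2H3, LPCAT1 and ITGA2, and the others kept none of the 5. None of the 5 passed with a constant prior variance, and RNF145, GTF2H3, ITGA2 and SPDYE2 did not pass with the mean of probe sets.

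**Figure D5:**
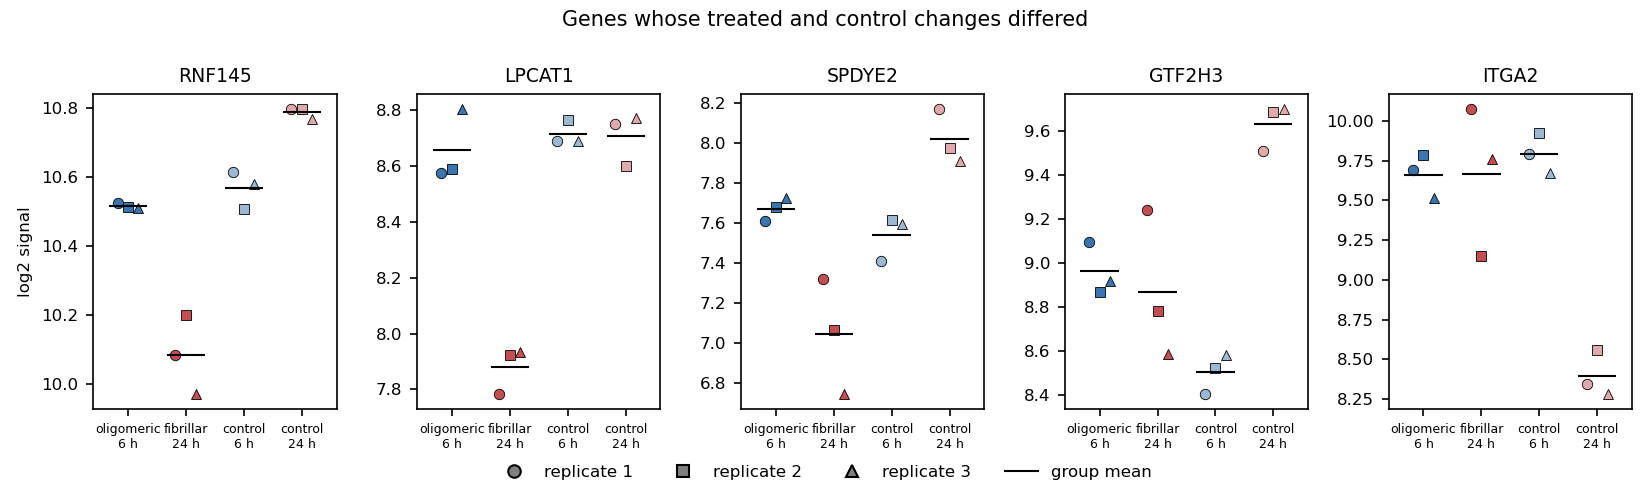
Log2 signal (vertical axis, its own range in each panel) of the 5 genes whose treated and control changes differed by limma, on each array by group. Symbols are replicates and lines are group means. RNF145, LPCAT1 and SPDYE2 are lowest in the fibrillar arrays, GTF2H3 is highest in the 24 h controls, and ITGA2 is lowest there.

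The next genes by p-value did not pass. RHOB, a small GTPase of endosomes, had changes of 0.32 with peptide and -0.73 in the controls (limma adjusted p = 0.0542 for the difference), ACTA2, smooth muscle actin, of -0.06 and -1.16 (0.0542), PLK2, a stress-induced polo-like kinase, of 0.49 and -0.50 (0.0725), and TNFRSF12A, the receptor of TWEAK, of -0.44 and -1.43 (0.0725). KLF6 had changes of 0.38 and -0.64 (0.0836). On the lower side stood TRMT2B, a tRNA methyltransferase (-0.96 and 0.59, adjusted p = 0.0542 by limma), and MLEC, the lectin malectin of the endoplasmic reticulum (-0.83 and -0.23, 0.0836). MLEC had been 9.44, 9.72 and 9.53 with oligomers and was 8.82, 8.72 and 8.67 with fibrils, a fall that was itself called (limma adjusted p = 3.75e-05). For the sterol genes HMGCS1 and INSIG1, whose control changes were small, the difference was 1.22 and 1.25 and did not pass (limma adjusted p = 0.212 and 0.217). A p above the threshold does not show that these changes were alike.

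Several genes changed in the controls without a call in the treated arrays. ATP8B1, a phospholipid flippase, rose by 0.95 in the controls and had a treated change of 0.05, on oligomeric values of 8.24, 7.50 and 7.78 and fibrillar values of 7.97, 7.85 and 7.84. EML5, a microtubule-associated protein, rose by 0.59, beside 0.24 in the treated arrays. ISLR2, a neuronal membrane protein of axon outgrowth, fell by 1.69, beside -0.57, and FNDC3A by 0.72, beside -0.16. The difference of the changes did not pass for these 4 genes (limma adjusted p from 0.116 to 0.458).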

How the data were processed

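The authors deposited probe set signals on a log2 scale, and the submitters' processing notes name MAS5 as their source. No version and no further normalization are given in the sources used here, and none was added. Platform annotation gave 41091 probe sets with 1 gene symbol, 1801 with several and 11721 with none, besides 62 controls. Only those with 1 symbol were tested, the brightest per gene (5838 genes had several above the filter). A group-means model of all 12 arrays in 4 groups was fitted with limma 3.58.1 in R 4.3.3 (eBayes, prior variance following the mean level), with Benjamini-Hochberg adjustment over 11774 genes and calls under 0.05. Contrasts were fibrillar 24 h less oligomeric 6 h, control 24 h less control 6 h, and their difference. Array measures were compared by exact permutation tests (the smallest p of 3 against 3 arrays is 0.1).

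The members, the 48 gene lists and the rules were chosen with earlier results of these data known, so lists are described by counts and medians without a test. Named genes were the 12 largest called changes in each direction with groups apart and the higher mean above the filter, the 6 smallest p-values in each direction, up to 3 called members of each list and direction (up to 2 where none was called), the 6 smallest p-values of the difference in each direction, up to 3 genes in each direction called in the controls alone, and APP, BACE1, MAPT, FOS and ITGA2. Other genes were named after their values were seen. Uncharacterised genes, 49 among those called, are not named. Replicate numbers were not used as pairs, because the labels give them no meaning. Deviations of same-numbered arrays correlated between -0.027 and 0.0895, mostly above 0. Those of differently numbered arrays in different groups correlated between -0.116 and 0.0915, mostly below 0. Whether same-numbered arrays share an effect was not tested. Promoters (250 bases before the start) came from RefSeq, GRCh38.p14. The fit was tested on simulated data. Alternatives were other scalings, filters, probe set rules, prior variances, array weights, the 2 groups alone, a replicate block and each array left out.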

Additional observations from a re-analysis of the deposited data

Results flagged for a closer look

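The control groups bear labels of the same hours, so each gene's treated change was tested against its control change. A departure passed the test (limma, adjusted over all genes) for 5 genes. The treated change less the control change was -0.65 for RNF145, -1.22 for GTF2H3, -0.77 for LPCAT1, 1.40 for ITGA2 and -1.11 for SPDYE2. RNF145 and SPDYE2 fell with peptide and rose in the controls, LPCAT1 fell with peptide and had a control change of -0.01, while GTF2H3 and ITGA2 changed in the controls and had treated changes of -0.09 and 0.00.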

How the results depend on the processing

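The treated count lay between 992 and 1891 genes when 1 array was left out, the control count between 719 and 1467, and the count for the difference between 0 and 64. Scalings, filters, probe set rules and variance models kept the first 2 within 1.5 times of 1781 and 1375, but moved the difference from 5 to 3 with quantile normalization, 13 with median centring (12 positive and 1 negative, with 2 of the 5 kept), 3 with the mean of probe sets, 8 with 16 added to the signal, 0 with a constant prior variance and 27 with array weights (18 positive and 9 negative). Median centring moved the median control change from -0.02 to -0.15 and the control split to 140 higher and 1768 lower. With the replicate block, 2000 treated, 1570 control and 3 difference genes were called, although the labels do not say that the numbers pair the arrays. The mean of probe sets turned the sign for ENO1 (0.090), ELAVL4 (-0.11), ATP6V1A (-0.037) and CHRNA3 (-0.20) in the treated arrays, and for HSP90AB1 (0.21), ENO1 (0.15) and CDK6 (0.47) in the controls. ACTB in place of GAPDH gave a 3′ less 5′ difference of 0.0088 in place of -0.07 between treated groups. CRY1, COX7A2, ELOVL6, ID3 and RPS25 also lost treated calls without 1 or more control arrays. The causes were not tested. With 3 arrays in each group and a median SE of 0.13, many small changes are within the error, and values under log2 3.78 are uncertain.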

Other observations

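The MYC network changed in 5 of 13 tested genes, 2 up and 3 down. MNT, a repressor that competes with MYC for MAX, was 7.93 ± 0.19 with oligomers and 8.80 ± 0.33 with fibrils (SD, n = 3). Each fibrillar value was higher, a change of 0.87 (SE 0.18, limma adjusted p = 0.0054), with a control change of -0.31, and the average of its probe sets was not called. CAD, the enzyme that starts pyrimidine synthesis, fell by 0.57 (SE 0.11), from 7.17, 7.21 and 7.22 to 6.57, 6.67 and 6.65, with a control change of -0.08. ODC1, ornithine decarboxylase, fell by 0.27 and lost its call without oligomeric replicate 3 or fibrillar replicates 1 or 3. The count of falls was 1 without each of these 3 arrays.

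Of 34 adhesion and matrix genes 3 rose and 3 fell, or 17.65% beside 15.1% of all genes. Each of these 3 rises and 3 falls had a call of the same direction in the controls. FBN1, fibrillin 1, rose by 0.38 (SE 0.09) and ITGB1, the β1 integrin, by 0.32 (SE 0.07), while TIMP1, an inhibitor of metalloproteinases, fell by 0.43 (SE 0.09). The average of ITGB1's probe sets was not called, 1 of its 3 other probe sets having a change of -0.29. COL5A1 and LAMC1 fell less firmly, with 1 fall left without oligomeric replicate 3 or fibrillar replicate 1. Ion channel and receptor genes rose in 4 of 23 cases and fell in 1, or 21.74% beside 15.1% of all genes. The list had a median of 0.15, beside 0.17 in the controls. The count of rises was 1 without oligomeric replicate 2 or fibrillar replicate 3. It was also 1 with the mean of probe sets, which gave CHRNA3, a rise of the list, a change of -0.20. SCN3A, a neuronal sodium channel, rose by 0.39 (SE 0.10) and KCNK1, a potassium leak channel, by 0.45 (SE 0.11), and both lost their call without oligomeric replicate 2 or fibrillar replicate 3. Of 15 metallothionein and zinc transporter genes 2 rose and 2 fell, or 26.67% beside 15.1% of all genes, with a median of 0.07. The zinc importers SLC39A8 (0.40, SE 0.08) and SLC39A10 (0.28, SE 0.07) rose in all 6 fits without 1 treated array. At most 1 fall of the list was called in any of these fits.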
